A study of Homo sapiens with 24 samples.

Results

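The genes described here are 49 genes of the lysosome and of autophagy, taken by symbol from a table of 30373 genes and transcripts measured in 4 human cancer cell lines. They were listed by symbol, with earlier results of these data known, and all 49 were found in the table. They fall into 10 roles: lysosomal membrane proteins, enzymes of the lumen and their helpers, the MiT/TFE transcription factors, the membrane (V0) and cytosolic (V1) subunits of the proton pump, the initiation machinery of autophagy, the conjugation machinery, the ATG8 family, the cargo receptors, and the chaperone clusterin. Cathepsins are not among them.

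Lysosomes are acidic compartments in which hydrolases break down proteins, lipids, glycans and glycogen. The vacuolar ATPase (V-ATPase) pumps protons into them, and heavily glycosylated membrane proteins such as LAMP1 line the inner face of the limiting membrane. Autophagy brings cytoplasmic material there: an initiation complex around ULK1 starts a cup-shaped membrane, a ubiquitin-like conjugation system attaches ATG8 proteins (LC3 and GABARAP) to it, and receptors such as p62, the product of SQSTM1, link cargo to the ATG8 proteins. Transcription of many lysosomal and autophagy genes is driven by TFEB, TFE3 and MITF, which bind an E-box element.

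Poly-A RNA was sequenced from SKM-1, MV-4-11 and Kasumi-1, which are established lines of acute myeloid leukaemia (AML), and from NCI-H1299, an established line of non-small cell lung cancer. Each line received the vehicle DMSO, ABBV-075 at 100 nM or ABBV-744 at 200 nM for 24 h, which gives 12 groups with 2 libraries in each. ABBV-075 (mivebresib) inhibits both bromodomains of the BET proteins, and ABBV-744 is selective for the second one. All lines were grown in RPMI-1640 medium with 10% serum and carry no engineered allele in the labels, each line stands for 1 tumour, and the doses of the compounds differ.

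Expression was deposited as FPKM (fragments per kilobase, scaled to library size), so read depth is unknown and levels can be compared between genes per unit length. Changes are log2 differences of FPKM + 1, which understates the change of low genes. Each is given with its standard error (SE, 2 libraries per group). The SE uses a spread per gene estimated over all 12 groups, so it is the same for a gene in each line. It is not the spread of the libraries compared, and can understate it where a pair stood far apart. FPKM is relative to the whole library, so less RNA per cell, or fewer cells, cannot be seen in it. A gene is called where the limma p-value, adjusted over all genes tested, is under 0.05. The libraries summed to 543426 to 719215 FPKM, with 11243 to 12624 genes at 1 FPKM or more. The SKM-1 DMSO libraries stood apart from each other: the SD of their log2 difference over genes was 0.641, mitochondrial transcripts took 9.13% of the FPKM in replicate 1 and 22.3% in replicate 2, and 7 members differed at least 2-fold between them. The Kasumi-1 libraries with ABBV-075 came next, with an SD of 0.453 and 3 such members, against 0.188 to 0.299 in the other 10 pairs. All 6 leukocyte markers listed reached 1 FPKM in each leukaemia line and 1 of 6 did in NCI-H1299, where CORO1A was highest at 2.59 FPKM. Their summed FPKM with DMSO and ABBV-075 was 757 to 1313 and 802 to 1053 in SKM-1, 1112 to 1325 and 835 to 840 in MV-4-11, and 405 to 412 and 190 to 228 in Kasumi-1. Of 6 epithelial and adherent cell markers 4 reached 1 FPKM in NCI-H1299, 4 in SKM-1, 3 in MV-4-11 and 2 in Kasumi-1, and CDH1 stayed at or below 0.114 FPKM in every library. Their sum with DMSO and ABBV-075 was 2228 to 2243 and 2928 to 3082 in NCI-H1299, 42.5 to 96.1 and 130 to 133 in SKM-1, 299 to 314 and 380 to 384 in MV-4-11, and 63.3 to 71.9 and 17.8 to 24.7 in Kasumi-1. Within that sum VIM alone measured 1540 to 1670 FPKM in NCI-H1299 and 290 to 376 in MV-4-11. EPCAM went the other way, at 7.96 to 48.1 FPKM in SKM-1 and 16.1 to 70.7 in Kasumi-1. It reached at most 0.206 FPKM in NCI-H1299 and 0.118 in MV-4-11. The part of the leukocyte, epithelial and adherent cell markers' moves in the members' changes was not tested. Erythroid and lymphoid markers summed to at most 0.722 and 1.93 FPKM in any library. HEXIM1, a gene known to rise on BET inhibition, rose with ABBV-075 in all 4 lines (log2 differences of 2.97, 2.57, 2.03 and 1.93 in SKM-1, MV-4-11, Kasumi-1 and NCI-H1299) and with ABBV-744 by 0.87, 1.01, 0.82 and 0.61. MYC fell with ABBV-075 in the leukaemia lines (-5.80, -1.15 and -3.06 in that order) and had -0.31 ± 0.17 in NCI-H1299 (adjusted p = 0.15), while SERPINI1 rose with it in all 4 lines (1.92, 2.80, 4.02 and 1.92).

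The element bound by the MiT/TFE factors is built on the palindrome CACGTG. Promoters of members that hold it are shown because many lysosomal and autophagy genes, though not all members here, are known to be driven through this element. RefSeq promoter sequences (GRCh38.p14) were found for 40 of the 49 members, and the 250 bases before the start were searched on both strands. The 27305 genes they are set against are all those of the promoter set, expressed in these lines or not. The share among expressed genes alone was not computed. CACGTG stood in 8 of the 40 (20% against 7.73% of 27305 genes in the same window), the longer TCACGTG, which contains it, in 7 (17.5% against 4.02%), and the full palindrome TCACGTGA in 4 (10% against 1.04%). Capitals mark CACGTG, each stretch runs 5′ to 3′ on the strand of its gene, and each ends at the base before the start of the gene.
LAMP1, chr13:113297039-113297238 on the plus strand: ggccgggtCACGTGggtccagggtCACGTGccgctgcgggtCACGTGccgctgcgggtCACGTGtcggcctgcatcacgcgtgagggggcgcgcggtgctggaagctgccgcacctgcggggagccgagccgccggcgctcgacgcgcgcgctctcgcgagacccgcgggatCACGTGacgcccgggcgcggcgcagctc
GAA, chr17:80101481-80101580 on the plus strand: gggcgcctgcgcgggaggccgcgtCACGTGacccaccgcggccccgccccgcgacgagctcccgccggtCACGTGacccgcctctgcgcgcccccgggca
MCOLN1, chr19:7522524-7522623 on the plus strand: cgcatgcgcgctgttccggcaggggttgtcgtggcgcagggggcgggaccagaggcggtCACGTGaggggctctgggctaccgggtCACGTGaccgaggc
ATP6V0D1, chr16:67481158-67481257 on the minus strand: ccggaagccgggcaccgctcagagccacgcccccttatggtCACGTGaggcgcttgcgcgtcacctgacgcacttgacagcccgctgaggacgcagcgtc
NEU1, chr6:31862822-31862971 on the minus strand: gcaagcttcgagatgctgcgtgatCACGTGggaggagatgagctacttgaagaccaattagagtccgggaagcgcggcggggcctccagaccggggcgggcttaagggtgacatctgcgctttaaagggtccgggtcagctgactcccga
ATP6V0B, chr1:43974880-43974959 on the plus strand: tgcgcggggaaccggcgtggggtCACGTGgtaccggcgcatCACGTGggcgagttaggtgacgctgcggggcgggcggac
SQSTM1, chr5:179806243-179806392 on the plus strand: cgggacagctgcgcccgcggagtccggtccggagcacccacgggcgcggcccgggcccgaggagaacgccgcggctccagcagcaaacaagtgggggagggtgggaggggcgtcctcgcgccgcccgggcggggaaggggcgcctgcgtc
The LAMP1 stretch holds CACGTG 5 times, those of GAA, MCOLN1 and ATP6V0B 2 times each, and those of NEU1 and ATP6V0D1 once. The other members with it were ATG3 and CD63. For the 11 members with several listed starts every window was searched, and the SQSTM1 stretch is the first of its 3. SQSTM1 is shown as the member with the largest rise in NCI-H1299. Neither its windows nor those of MAP1LC3B, GABARAPL1, GABARAPL2 and WIPI1, all with large rises below, held the 6 letters. Of the members that hold them, NEU1 rose with ABBV-075 in all 4 lines and ATG3 fell in 3. A match describes letters in a window and not a bound site, and a lack of one covers only these letters and this window. The part of the element in the changes was not tested.

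With ABBV-075 more members rose than fell in every line. Genes were tested where at least 2 libraries of a line reached 1 FPKM, and in Kasumi-1 CLU, MITF and OPTN did so only through the ABBV-075 libraries and TFEB only through the DMSO libraries, so that the group in which they were higher decided that they were tested. In SKM-1, 32 of 49 tested members rose and 2 fell, against 32% and 29.2% of all genes tested. In MV-4-11, 23 of 48 rose and 3 fell (all genes, 20.3% and 22.1%), in Kasumi-1 23 of 48 rose and 6 fell (24.7% and 32.6%), and in NCI-H1299 24 of 47 rose and 1 fell (20.6% and 26.5%). In the mean over the 3 leukaemia lines (the AML mean), 33 of 47 rose and 6 fell (33.5% and 34.4%). The members' median log2 difference was 0.81 in SKM-1, 0.38 in MV-4-11, 0.43 in Kasumi-1 and 0.43 in NCI-H1299, while that of all genes tested lay between -0.09 and 0.05. The NCI-H1299 count of 25 calls was 38 in a fit of that line alone. The MV-4-11 count of 26 calls was 17 without either ABBV-075 library of that line, and its 3 falls were 0 without any 1 of the 4 MV-4-11 libraries compared. With quantile normalization that line had 24 higher and 0 lower, and with rescaling without mitochondrial transcripts 25 higher and 0 lower. The 23 rises in Kasumi-1 include CLU, MITF and OPTN and are 20 without them, and the AML mean had 31 rises without CLU and OPTN and 5 falls without TFEB. The 6 falls in Kasumi-1 were 11 without either SKM-1 DMSO library and 3 without Kasumi-1 ABBV-075 replicate 2, and the 6 in the AML mean were 3 without SKM-1 ABBV-075 replicate 2, MV-4-11 DMSO replicate 2 or either Kasumi-1 DMSO library.

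A group of 11 members rose with ABBV-075 in all 4 lines, of 46 tested in all of them (7.97% of all genes did so): SQSTM1, MAP1LC3B, GABARAPL1, GABARAPL2, WIPI1, NEU1, NPC1, SCARB2, ATP6V1A, ATP6V1B2 and ATP6V1D. MCOLN1 rose in the 3 leukaemia lines as well, which made 12 of 47 there (10.6% of all genes). No member fell in all 4 lines or in all 3 leukaemia lines, where 7.75% and 10.6% of all genes did.

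All 4 ATG8 genes rose in the AML mean, with a list median of 1.45 on the log2 scale (33.5% of all genes rose). All 3 receptors rose too, with a list median of 0.91. That median is the value of OPTN, which was tested in Kasumi-1 only through its ABBV-075 libraries. SQSTM1 encodes p62, a receptor that binds ubiquitin and LC3 and is itself degraded by autophagy. In SKM-1 it measured 39.0 and 30.6 FPKM with DMSO, 317 and 259.7 with ABBV-075 and 51.4 and 59 with ABBV-744. In NCI-H1299 the values were 352 and 331, 1664 and 1536 and 601 and 619 FPKM, and its ABBV-075 values there were the highest of any member in any library. The ABBV-075 libraries of both lines lay above their DMSO libraries, and no library of one treatment overlapped another. The log2 difference with ABBV-075 was 3.02 ± 0.16, adjusted p = 3.7e-10 in SKM-1 and 2.22 ± 0.16, adjusted p = 3.0e-08 in NCI-H1299. MV-4-11 rose from 46.2 and 50.1 to 97.2 and 106 FPKM (1.06 ± 0.16, adjusted p = 7.3e-05), and Kasumi-1 from 28.2 and 28.3 to 69.2 and 48.0 FPKM (1.0 ± 0.16, adjusted p = 7.8e-05).

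MAP1LC3B encodes LC3B, the ATG8 protein most used as a marker of autophagosomes. It measured 22.5 and 20.1 FPKM with DMSO and 102 and 165 with ABBV-075 in SKM-1, 21.8 and 21.4 and 54.9 and 61.0 in Kasumi-1, 25.6 and 22.3 and 39.7 and 41.7 in MV-4-11, and 72.2 and 51.1 and 100.1 and 109 in NCI-H1299. The ABBV-075 libraries were above the DMSO libraries in every line, most of all in SKM-1. Its log2 difference was 2.56 ± 0.19, adjusted p = 1.3e-08 in SKM-1, 1.38 ± 0.19, adjusted p = 1.4e-05 in Kasumi-1, 0.75 ± 0.19, adjusted p = 0.0047 in MV-4-11 and 0.77 ± 0.19, adjusted p = 0.0033 in NCI-H1299. The last call was lost without NCI-H1299 DMSO replicate 2 (log2 difference 0.53, adjusted p = 0.068). The table also lists MAP1LC3B2, a near-identical copy, so reads may be split between the pair and the values of both are uncertain.

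GABARAPL1, a relative of GABARAP, was the lowest of the 4 ATG8 genes with DMSO in each leukaemia line and in NCI-H1299. With DMSO and ABBV-075 it measured 3.41 and 4.43 and then 15.4 and 17.1 FPKM in SKM-1, 2.44 and 2.75 and then 10.3 and 12.2 in MV-4-11, 1.41 and 1.13 and then 4.47 and 4.48 in Kasumi-1, and 35.9 and 35.7 and then 74.6 and 68.3 in NCI-H1299. Its level in NCI-H1299 with DMSO was above that of any leukaemia library, treated or not. The log2 difference was 1.82 ± 0.12, 1.77 ± 0.12, 1.27 ± 0.12 and 0.98 ± 0.12 in that order, with adjusted p of 2.6e-09, 7.1e-09, 1.9e-07 and 5.1e-06. GABARAPL2, which acts in autophagosome maturation and Golgi transport, rose by 1.38 ± 0.12, 1.19 ± 0.12, 1.43 ± 0.12 and 0.81 ± 0.12 (adjusted p at most 4.1e-05). GABARAP itself, the most abundant member of MV-4-11 at 263 and 236 FPKM, rose in SKM-1 (1.11 ± 0.16, adjusted p = 2.4e-05) and had log2 differences of -0.31 ± 0.16 in MV-4-11, 0.20 ± 0.16 in Kasumi-1 and 0.34 ± 0.16 in NCI-H1299, with adjusted p of 0.14, 0.3 and 0.1.

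**Figure D1:**
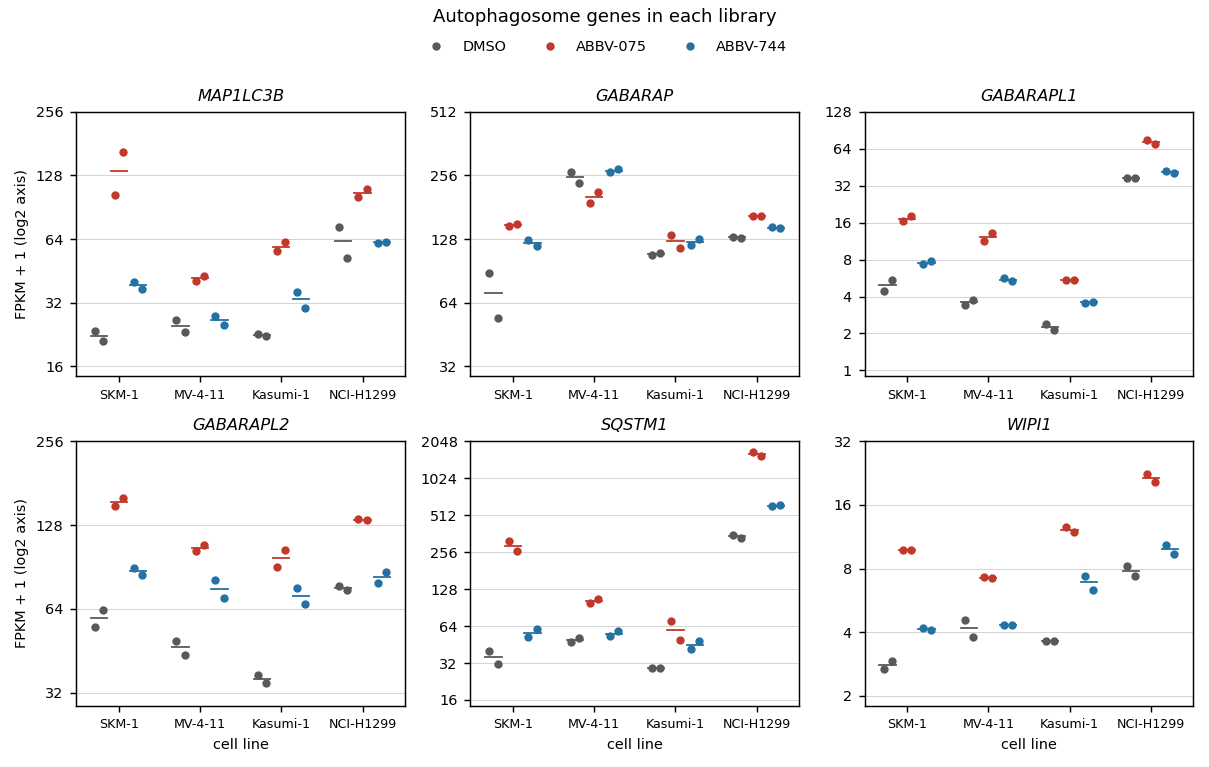
FPKM + 1 (log2 axis) of the 4 ATG8 genes, SQSTM1 and WIPI1 in each of the 24 libraries, by line (x axis) and treatment (colour). Points are libraries and short lines are group means. In every line the ABBV-075 libraries of SQSTM1, MAP1LC3B, GABARAPL1, GABARAPL2 and WIPI1 sit above those of DMSO, while the GABARAP libraries of MV-4-11 sit below.

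OPTN, optineurin, a receptor for damaged mitochondria and bacteria, was near the floor in 2 lines. It measured 0.819 and 1.19 FPKM with DMSO and 4.80 and 5.18 with ABBV-075 in SKM-1, and 0.326 and 0.167 and 1.88 and 1.87 in Kasumi-1. SKM-1 rose (1.58 ± 0.11, adjusted p = 5.0e-09). The Kasumi-1 difference was 1.21 ± 0.11, adjusted p = 1.5e-07, and with no filter on low values its adjusted p was 3.33e-07. MV-4-11 held 7.97 and 7.23 FPKM with DMSO and 7.15 and 7.47 with ABBV-075, overlapping ranges with a log2 difference of -0.05 ± 0.11 (adjusted p = 0.75). NCI-H1299 rose from 18.4 and 17.9 to 23.8 and 25.4 FPKM (0.42 ± 0.11, adjusted p = 0.0045). TAX1BP1, a receptor for aggregates, rose in Kasumi-1 (1.21 ± 0.25, adjusted p = 7.0e-04) and in NCI-H1299 (0.71 ± 0.25, adjusted p = 0.031), and the latter was not called without any 1 of the 4 NCI-H1299 libraries compared (adjusted p 0.09 to 0.12).

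Among the initiation genes, 6 of 7 rose and 1 fell in the AML mean (33.5% and 34.4% of all genes). The ATG9A rise was lost in 6 of the single-library omissions (log2 differences 0.26 to 0.34). WIPI1 binds phosphatidylinositol 3-phosphate on the forming membrane. Its FPKM was 1.67 and 1.92 with DMSO and 8.78 and 8.77 with ABBV-075 in SKM-1, 3.55 and 2.80 and 6.30 and 6.21 in MV-4-11, 2.65 and 2.63 and 11.5 and 10.9 in Kasumi-1, and 7.24 and 6.38 and 21.4 and 19.5 in NCI-H1299. No range overlapped, and the log2 differences of 1.81, 0.80, 1.74 and 1.46 (SE 0.11) had adjusted p of at most 2.2e-05. ULK1, the kinase that starts autophagy, rose in NCI-H1299 from 8.13 and 6.8 to 16.9 and 15.4 FPKM (1.02 ± 0.20, adjusted p = 7.1e-04) and in MV-4-11 (0.61 ± 0.20, adjusted p = 0.024), where leaving out DMSO replicate 1 or either ABBV-075 library ended the call (adjusted p 0.07 to 0.15). BECN1, a subunit of the lipid kinase that makes phosphatidylinositol 3-phosphate, rose less, by 0.49 ± 0.08 in SKM-1, 0.43 ± 0.08 in Kasumi-1 and 0.34 ± 0.08 in NCI-H1299. UVRAG, a partner of BECN1, was the one that fell, by an AML mean log2 difference of -0.50 ± 0.10, adjusted p = 3.0e-04.

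ATG9A, a lipid scramblase whose vesicles seed the autophagosome, moved in opposite directions. It measured 6.09 and 4.05 FPKM with DMSO and 18.1 and 13.4 with ABBV-075 in SKM-1, and 3.92 and 4.43 and 3.15 and 1.69 in Kasumi-1. It rose in SKM-1 (1.47 ± 0.23, adjusted p = 5.6e-05) and fell in Kasumi-1 (-0.63 ± 0.23, adjusted p = 0.031), and the ranges did not overlap in either line. The Kasumi-1 call was lost without DMSO replicate 1 (log2 difference -0.70, adjusted p = 0.066), without DMSO replicate 2 (-0.56, 0.13) and without ABBV-075 replicate 2 (-0.32, 0.33).

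In the AML mean 1 of 5 genes of the conjugation machinery rose, 2 fell (33.5% and 34.4% of all genes), and the list median was -0.08. ATG3, the E2-like enzyme that transfers ATG8 to lipid, fell in 3 lines and had overlapping values in Kasumi-1 (49.5 and 50.4 FPKM with DMSO and 39.8 and 50.6 with ABBV-075). It measured 70.0 and 109.8 FPKM with DMSO and 38.4 and 44.1 with ABBV-075 in SKM-1 (-1.07 ± 0.17, adjusted p = 5.0e-05), 77.2 and 68.6 and 51.2 and 51.8 in MV-4-11 (-0.49 ± 0.17, adjusted p = 0.028), and 42.2 and 42.4 and 28.7 and 30.1 in NCI-H1299 (-0.51 ± 0.17, adjusted p = 0.021). These ranges did not overlap, but the MV-4-11 and NCI-H1299 calls were each lost without any 1 of the 4 libraries compared (adjusted p 0.051 to 0.16 and 0.063 to 0.099). ATG5, part of the E3-like complex, rose in Kasumi-1 (0.62 ± 0.16, adjusted p = 0.0035) and, in SKM-1, 0.42 ± 0.16 was called with all libraries (adjusted p = 0.031) and not without DMSO replicate 2 (adjusted p = 0.40) or ABBV-075 replicate 1 (0.20). ATG7, the E1-like enzyme, fell in Kasumi-1 from 6.61 and 7.11 to 3.82 and 3.27 FPKM (-0.79 ± 0.23, adjusted p = 0.0082), with adjusted p = 0.057 without ABBV-075 replicate 2. The ATG7 call in the AML mean, one of the 2 falls, was lost without either SKM-1 ABBV-075 library, either MV-4-11 or Kasumi-1 DMSO library, Kasumi-1 ABBV-075 replicate 2 or MV-4-11 ABBV-075 replicate 1, with adjusted p between 0.054 and 0.088. ATG12, a ubiquitin-like protein joined to ATG5, was the member whose SKM-1 DMSO libraries lay farthest apart, at 14.9 and 57.9 FPKM: its log2 difference with ABBV-075 was -0.40 ± 0.38 (adjusted p = 0.38) and turned to 0.55 without replicate 2.

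The proton pump subunits mostly rose. Of the V0 subunits tested in the AML mean 2 of 3 rose, of the V1 subunits 4 of 5, and none fell (of all genes 33.5% rose and 34.4% fell). ATP6V0A1, the a1 subunit of the proton channel, measured 15.3 and 11.6 FPKM with DMSO and 63.7 and 55.3 with ABBV-075 in SKM-1, 6.87 and 7.15 and 22.8 and 27.0 in MV-4-11, and 8.50 and 8.89 and 17.6 and 16.7 in NCI-H1299. The rises were 2.07 ± 0.13, adjusted p = 2.5e-09, 1.69 ± 0.13, adjusted p = 5.5e-08 and 0.91 ± 0.13, adjusted p = 4.1e-05. Kasumi-1 lacked this transcript, with at most 0.0898 FPKM in any of its 6 libraries, and was not tested. ATP6V0D1, which joins the channel to the cytosolic part, measured 35.1 and 20.8 FPKM with DMSO and 84.9 and 65.5 with ABBV-075 in SKM-1, 37.8 and 40.3 and 68.7 and 71.1 in MV-4-11, 39.7 and 38.1 and 66.2 and 40.7 in Kasumi-1, and 35.1 and 34 and 64.5 and 59.4 in NCI-H1299. The Kasumi-1 pair with ABBV-075 was wide, and its difference of 0.41 ± 0.22 was not called. It rose in SKM-1 (1.43 ± 0.22), MV-4-11 (0.83 ± 0.22) and NCI-H1299 (0.82 ± 0.22), all with adjusted p of at most 0.0061. ATP6V0B, among the 3 most abundant members in each leukaemia line with DMSO, was not called in any line, and its SKM-1 DMSO libraries held 197 and 64.4 FPKM.

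Of the V1 subunits, ATP6V1A and ATP6V1B2, which form the ATP-hydrolysing head, rose in all 4 lines. ATP6V1A rose by 0.96 ± 0.13, 0.77 ± 0.13, 0.80 ± 0.13 and 0.80 ± 0.13 in SKM-1, MV-4-11, Kasumi-1 and NCI-H1299, and ATP6V1B2 by 0.86 ± 0.10, 0.66 ± 0.10, 0.47 ± 0.10 and 0.59 ± 0.10. ATP6V1D, a subunit of the central stalk, had its lowest DMSO level in SKM-1 and its highest in NCI-H1299. It measured 6.39 and 9.51 FPKM with DMSO and 22.4 and 31.1 with ABBV-075 in SKM-1, and 15.4 and 17.7 and 42.6 and 45.7 in Kasumi-1. These were rises of 1.64 ± 0.18, adjusted p = 9.3e-07 and 1.36 ± 0.18, adjusted p = 8.3e-06. ATP6V1D also rose in MV-4-11 (0.73 ± 0.18) and in NCI-H1299 (0.46 ± 0.18, adjusted p = 0.041), where the call was lost in 10 of the single-library omissions (adjusted p 0.051 to 0.16). ATP6V1H, the regulatory subunit, rose in 3 lines and in MV-4-11 measured 26.6 and 23.4 with DMSO and 23.6 and 25.1 FPKM with ABBV-075, overlapping values. ATP6V1C1 changed least, with an AML mean difference of 0.16 ± 0.07 (adjusted p = 0.052).

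**Figure D2:**
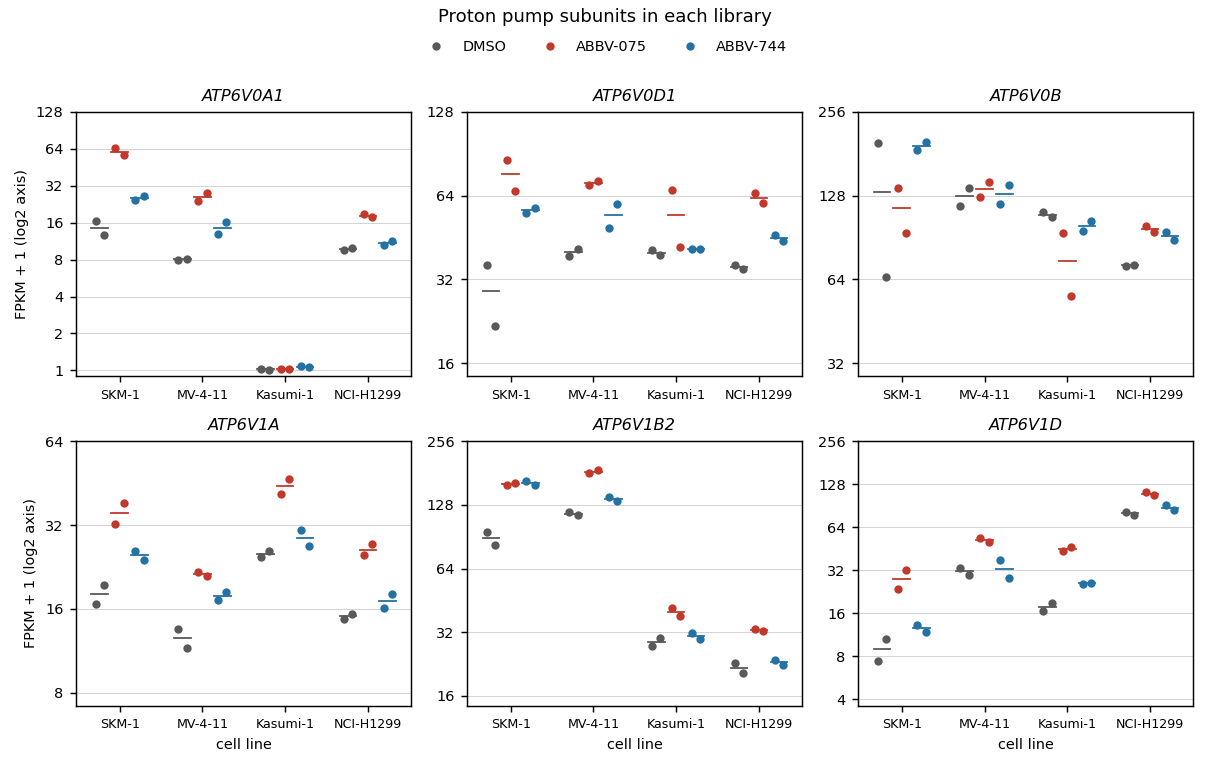
FPKM + 1 (log2 axis) of 6 proton pump subunits in each library, by line (x axis) and treatment (colour), with short lines for group means. ATP6V0A1 stays at the bottom of its axis in Kasumi-1, the pair of SKM-1 DMSO points is wide for ATP6V0B, and the ABBV-075 libraries of ATP6V1A, ATP6V1B2 and ATP6V1D lie above those of DMSO in each line.

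Of the 6 lysosomal membrane genes 5 rose in the AML mean (33.5% of all genes), and CD63 was the one without a call. NPC1, which exports cholesterol from the lysosome, measured 12.4 and 8.05 FPKM with DMSO and 23.2 and 22.4 with ABBV-075 in SKM-1, 10.1 and 9.97 and 18.9 and 18.3 in MV-4-11, 6.28 and 5.32 and 21.5 and 16.0 in Kasumi-1, and 20.2 and 20.6 and 37.6 and 35.7 in NCI-H1299. No range overlapped, and the rise was 1.11 ± 0.16, 0.83 ± 0.16, 1.52 ± 0.16 and 0.81 ± 0.16, with adjusted p of at most 6.3e-04. SCARB2, the receptor that carries glucocerebrosidase to lysosomes, rose in each line (0.61, 0.69, 0.45 and 0.58, SE 0.11). MCOLN1, the lysosomal calcium channel with CACGTG in its promoter window, rose in SKM-1 (1.02 ± 0.22, adjusted p = 8.2e-04), MV-4-11 (0.89 ± 0.22, adjusted p = 0.004) and Kasumi-1 (0.68 ± 0.22, adjusted p = 0.015), the last not called without DMSO replicate 2 (adjusted p = 0.11) or ABBV-075 replicate 1 (0.20). LAMP1, whose window holds 5 copies, had smaller differences: 0.47 ± 0.13 in SKM-1, 0.37 ± 0.13 in MV-4-11, -0.29 ± 0.13 in Kasumi-1 and 0.30 ± 0.13 in NCI-H1299, with calls in the first pair only (adjusted p = 0.0047 and 0.029). Its AML mean call (0.18 ± 0.07) was lost in 8 of the single-library omissions, which left out SKM-1 DMSO replicate 2, either SKM-1 or MV-4-11 ABBV-075 library, MV-4-11 DMSO replicate 1, Kasumi-1 ABBV-075 replicate 1 or Kasumi-1 DMSO replicate 2, with adjusted p between 0.057 and 0.13. The SKM-1 call was lost without DMSO replicate 2 (adjusted p = 0.054), and that of MV-4-11 without any 1 of its 4 libraries (0.068 to 0.14).

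CD63, a tetraspanin of lysosomes and exosomes, measured 102 and 126 FPKM with DMSO and 209 and 174 with ABBV-075 in SKM-1, and 150.2 and 141 and 93.3 and 74.8 in Kasumi-1. It rose in the former (0.75 ± 0.14, adjusted p = 3.4e-04) and fell in the latter (-0.79 ± 0.14, adjusted p = 2.4e-04), with no overlap in either. MV-4-11 gave 0.39 ± 0.14, adjusted p = 0.038, a call lost in 5 of the single-library omissions (adjusted p 0.05 to 0.27), and NCI-H1299 -0.28 ± 0.14 (adjusted p = 0.13).

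The lumenal genes were mixed: in the AML mean 6 of 11 rose and 2 fell (33.5% and 34.4% of all genes), with a median of 0.25. NEU1, the lysosomal sialidase, measured 35.5 and 19.5 FPKM with DMSO and 117 and 96.1 with ABBV-075 in SKM-1, 18.1 and 19.3 and 41.8 and 45.5 in MV-4-11, 31.4 and 29.9 and 65.4 and 40.5 in Kasumi-1, and 35.4 and 32.7 and 111 and 101 in NCI-H1299. It rose by 1.97 ± 0.22, 1.18 ± 0.22, 0.73 ± 0.22 and 1.61 ± 0.22, with adjusted p of 1.6e-06, 5.0e-04, 0.011 and 2.6e-05. The Kasumi-1 call was lost without DMSO replicate 2 (adjusted p = 0.054) or ABBV-075 replicate 1 (0.16). PSAP encodes the precursor of the saposins, which help lipid hydrolases. It measured 107 and 79.4 FPKM with DMSO and 339 and 296 with ABBV-075 in SKM-1, 40.7 and 47.3 and 158 and 165 in MV-4-11, and 179 and 172 and 345 and 331 in NCI-H1299, with rises of 1.77 ± 0.17, 1.86 ± 0.17 and 0.94 ± 0.17. Kasumi-1 already held 370.1 and 339 FPKM with DMSO, the highest DMSO level of the 4 lines, and its difference of 0.34 ± 0.17 was not called (adjusted p = 0.096).

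GRN, the precursor of granulins, rose in SKM-1 (1.30 ± 0.31, adjusted p = 0.0018) and MV-4-11 (0.95 ± 0.31, adjusted p = 0.022). The MV-4-11 call was lost without DMSO replicate 1 or either ABBV-075 library (adjusted p 0.072 to 0.15), and the Kasumi-1 libraries with ABBV-075 held 187 and 85.8 FPKM, the widest pair of that group. NPC2, the soluble partner of NPC1, rose in Kasumi-1 from 90.1 and 85.0 to 204 and 181 FPKM (1.13 ± 0.29, adjusted p = 0.0041) and in SKM-1 (1.02 ± 0.29, adjusted p = 0.007), where the call was lost without DMSO replicate 1 (log2 difference 0.26, adjusted p = 0.057). LIPA, the acid lipase, rose in Kasumi-1 (0.58 ± 0.15) and NCI-H1299 (0.64 ± 0.15). GLA, the alpha-galactosidase, fell in the AML mean (-0.44 ± 0.14, adjusted p = 0.011) without a call in a single line. GAA, the acid alpha-glucosidase that degrades glycogen, fell in Kasumi-1 from 55.3 and 47.3 to 28.9 and 12.9 FPKM (-1.35 ± 0.30, adjusted p = 0.0011), while the other 3 lines had 0.16, 0.52 and 0.26 without a call. HEXA, a beta-hexosaminidase subunit, was called lower in Kasumi-1 (-0.58 ± 0.23, adjusted p = 0.038) and not without either DMSO library or ABBV-075 replicate 2 (adjusted p 0.11 to 0.45). Its call in the AML mean, one of the 2 falls, was lost without SKM-1 DMSO replicate 1, SKM-1, MV-4-11 or Kasumi-1 ABBV-075 replicate 2, MV-4-11 DMSO replicate 2 or either Kasumi-1 DMSO library (adjusted p 0.061 to 0.13).

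The MiT/TFE factors themselves differed. TFE3 rose in SKM-1 from 10.9 and 8.78 to 26.5 and 24.1 FPKM (1.29 ± 0.16, adjusted p = 3.8e-06) and in MV-4-11 from 8.86 and 9.41 to 14.5 and 15 (0.63 ± 0.16, adjusted p = 0.0041). TFEB lay between 2.75 and 7.10 FPKM in the SKM-1 and MV-4-11 libraries. It reached at most 1.18 in Kasumi-1, where it was tested only through its DMSO libraries. Its AML mean difference was -0.23 ± 0.10 (limma adjusted p = 0.043). With no filter on low values that call was lost (limma adjusted p = 0.065). It was also lost in 15 of the single-library omissions (log2 differences -0.25 to -0.17). MITF was low in every line and in Kasumi-1 measured 0.367 and 0.495 FPKM with DMSO and 1.44 and 1.96 with ABBV-075 (0.91 ± 0.12, adjusted p = 1.1e-05, and 3.44e-05 with no filter). In NCI-H1299 TFE3 was the one factor above 1 FPKM, at 23.7 and 23.2 FPKM with DMSO, with a difference of 0.23 ± 0.16 (adjusted p = 0.24).

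CLU, clusterin, a secreted chaperone known to rise with cell stress, had the widest spread among lines of the 46 members tested in all 4, with Kasumi-1 tested through its ABBV-075 libraries alone. It measured 5.80 and 4.17 FPKM with DMSO and 47.4 and 48.3 with ABBV-075 in SKM-1, 0.0965 and 0.182 and 2.83 and 2.58 in Kasumi-1, 20.6 and 12.3 and 44.1 and 34.8 in NCI-H1299, and 9.13 and 11.1 and 6.25 and 6.05 in MV-4-11. The differences in the first 3 were called higher (3.04 ± 0.24, adjusted p = 3.3e-08, 1.70 ± 0.24, adjusted p = 2.2e-05, and 1.25 ± 0.24, adjusted p = 5.7e-04) and that in MV-4-11 lower (-0.63 ± 0.24, adjusted p = 0.046), a call lost in 16 of the single-library omissions (adjusted p 0.05 to 0.23). With no filter the adjusted p in Kasumi-1 was 7.83e-05.

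The difference among lines was tested directly. The change with ABBV-075 differed among the 4 lines in an F test for 23 of 46 members, a share near the 50.4% of all genes tested, and for 21 without CLU and OPTN. That count was 38 without SKM-1 DMSO replicate 1 and 15 without Kasumi-1 ABBV-075 replicate 2. Set against NCI-H1299, the AML mean change was higher for 5 of 46 members, a share near the 10.5% of all genes tested. It was lower for none (8% of all genes). The 5 were GABARAPL1 by 0.64 ± 0.13, adjusted p = 0.0031, ATP6V1D by 0.78 ± 0.20, adjusted p = 0.013, MAP1LC3B by 0.79 ± 0.22, adjusted p = 0.018, GABARAPL2 by 0.52 ± 0.14, adjusted p = 0.014 and OPTN by 0.49 ± 0.12, adjusted p = 0.011. Without OPTN, tested in Kasumi-1 only through its ABBV-075 libraries, the 5 were 4. For all 46 members, median ratio scaling gave 6 higher and 1 lower, quantile normalization 7 and 1, and rescaling without mitochondrial transcripts 3 and 2. By limma at an unadjusted p under 0.05 it was 11 members in either direction. The count of 5 was 13 without either SKM-1 DMSO library, 1 without NCI-H1299 DMSO replicate 1 and 2 without either NCI-H1299 ABBV-075 library. All 5 started from a lower DMSO level in the leukaemia lines, by -3.43, -2.23, -1.41, -0.72 and -2.79 on the log2 scale. SQSTM1, with a change larger in NCI-H1299 than in the AML mean, had a difference of -0.53 ± 0.19 (adjusted p = 0.061).

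**Figure D3:**
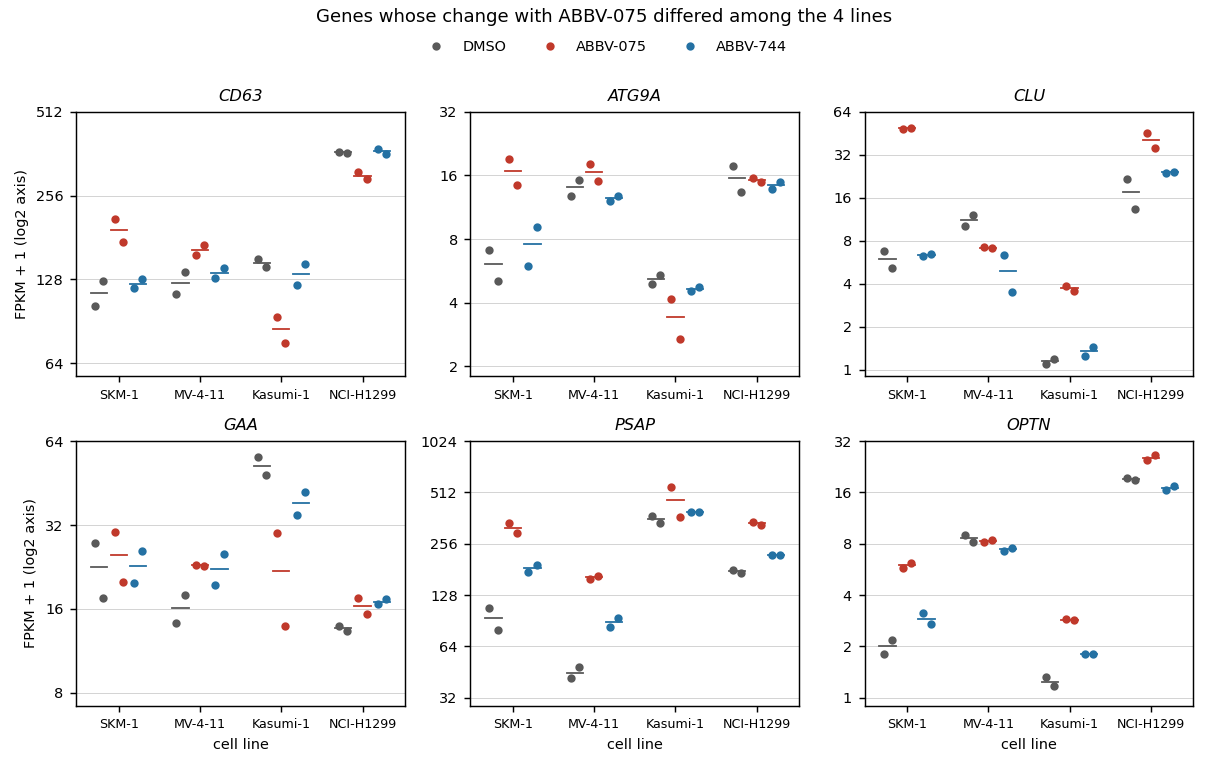
FPKM + 1 (log2 axis) of CD63, ATG9A, CLU, GAA, PSAP and OPTN in each library, by line (x axis) and treatment (colour), with short lines for group means. The ABBV-075 points of CD63 and ATG9A are above DMSO in SKM-1 and below it in Kasumi-1, those of CLU are below DMSO in MV-4-11 and above it in the other lines, and those of OPTN overlap DMSO in MV-4-11.

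With DMSO alone an F test among lines called 42 of 46 members, a share near the 87.6% of all genes tested, and the AML mean was above NCI-H1299 for 16 and below it for 22 (29.3% and 35.9%). Without CLU and OPTN, tested in Kasumi-1 only through its ABBV-075 libraries, those 42 were 40 and those 22 were 20. The autophagy genes that marked NCI-H1299 were GABARAPL1 (-3.43 ± 0.09 for the AML mean minus NCI-H1299), SQSTM1 (-3.21 ± 0.13) and OPTN (-2.79 ± 0.09). The leukaemia lines were higher in TPP1, a lysosomal peptidase (1.73 ± 0.09), and in ATP6V1B2 (1.62 ± 0.08). CD63 was the most abundant member in NCI-H1299 at 364 ± 3.58 FPKM (SD, n = 2), followed by SQSTM1 at 342 ± 14.8. PSAP led in Kasumi-1 at 355 ± 21.6, GABARAP in MV-4-11 at 249 ± 19.4, and ATP6V0B in SKM-1 at 130.5 ± 93.4, a value whose SD exceeded its distance to CD63, the next member at 114 ± 17.

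ABBV-744 at 200 nM gave fewer calls than ABBV-075 at 100 nM, and both changes were measured against the same DMSO libraries. In SKM-1, 23 of 49 members rose and 1 fell (14.9% and 12.5% of all genes), in MV-4-11 5 of 48 rose and 1 fell (4.61% and 6.75%), in Kasumi-1 10 of 48 rose and none fell (8.69% and 15%), and in NCI-H1299 1 of 47 rose and none fell (1.40% and 3.95%). In the AML mean 21 of 47 rose and 1, ATG3, fell (18.2% and 17.3%). Without OPTN, tested in Kasumi-1 only through its ABBV-075 libraries, the rises were 9 in Kasumi-1 and 20 in the AML mean. GABARAPL1 and GABARAPL2 were the members that rose in all 3 leukaemia lines, as 1.24% of all genes did. GABARAPL2 measured 88.7 and 84.0 FPKM with ABBV-744 in SKM-1 against 54.4 and 62.6 with DMSO, 80.3 and 69.3 against 48.3 and 42.8 in MV-4-11, and 75.3 and 65.7 against 36.1 and 33.9 in Kasumi-1. The rises were 0.56 ± 0.12, 0.70 ± 0.12 and 0.99 ± 0.12, and in NCI-H1299 the difference was 0.12 ± 0.12 (adjusted p = 0.74). GABARAPL1 rose by 0.62 ± 0.12, 0.61 ± 0.12 and 0.66 ± 0.12, with 0.16 ± 0.12 in NCI-H1299 (adjusted p = 0.62).

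Several other members rose with ABBV-744 in 1 or 2 leukaemia lines. PSAP measured 175 and 191 FPKM in SKM-1 and 82.5 and 93.0 in MV-4-11 and rose by 0.98 ± 0.17 and 0.98 ± 0.17. WIPI1 rose in SKM-1 (0.57 ± 0.11) and in Kasumi-1 (0.91 ± 0.11), OPTN in SKM-1 (0.54 ± 0.11), with 0.54 ± 0.11 in Kasumi-1 at 0.814 and 0.797 FPKM, and ATP6V0A1 in SKM-1 (0.82 ± 0.13) and MV-4-11 (0.85 ± 0.13). ATP6V1B2 in SKM-1 measured 165 and 157 FPKM with ABBV-744 and 159 and 161 with ABBV-075, a difference between the compounds of 0.01 ± 0.10 with a 95% interval of -0.20 to 0.22. SQSTM1 was the 1 member called in NCI-H1299 (0.83 ± 0.16, adjusted p = 0.0051), and not without DMSO replicate 2 of that line (adjusted p = 0.069), while a fit of NCI-H1299 alone called 10 members. CLU, which rose with ABBV-075 in SKM-1, measured 5.20 and 5.41 FPKM there with ABBV-744, within the DMSO range of 5.80 and 4.17, and fell in MV-4-11 to 5.33 and 2.49 (-1.24 ± 0.24, adjusted p = 0.003), a call lost without ABBV-744 replicate 2 (adjusted p = 0.061). Among the membrane genes NPC1 led in the AML mean with ABBV-744 (0.49 ± 0.09, adjusted p = 7.6e-04), at 14.7 and 15.6 FPKM in SKM-1, 13.8 and 14.3 in MV-4-11 and 9.20 and 7.74 in Kasumi-1, each above its DMSO libraries. TFE3 led the MiT/TFE factors (0.36 ± 0.09, adjusted p = 0.0061), at 14.3 and 16.8, 11.1 and 12.2 and 6.07 and 5.64 FPKM in the same order. Of the V0 subunits it was ATP6V0D1 (0.50 ± 0.13, adjusted p = 0.0062), at 54.4 and 56.9, 48.0 and 58.8 and 40.0 and 40.3 FPKM, where the Kasumi-1 values were close to those with DMSO. ATG3 fell in the AML mean (-0.44 ± 0.10, adjusted p = 0.0027), at 53.8 and 51.2, 62.8 and 54.0 and 44.2 and 38.3 FPKM, each below its DMSO libraries. The SKM-1 count of 24 calls was 15 and 14 without ABBV-744 replicate 1 and 2 and 0 in a fit of that line alone. The MV-4-11 count of 6 was 10 without either SKM-1 DMSO library, which enter through the shared spread, and 11 in a fit of that line alone. Rescaled without mitochondrial transcripts, MV-4-11 had 10 calls and Kasumi-1 had 5 higher and 1 lower. The Kasumi-1 count of 10 was 4 in a fit of that line alone, 4 without either DMSO library and 5 without either ABBV-744 library of that line.

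**Figure D4:**
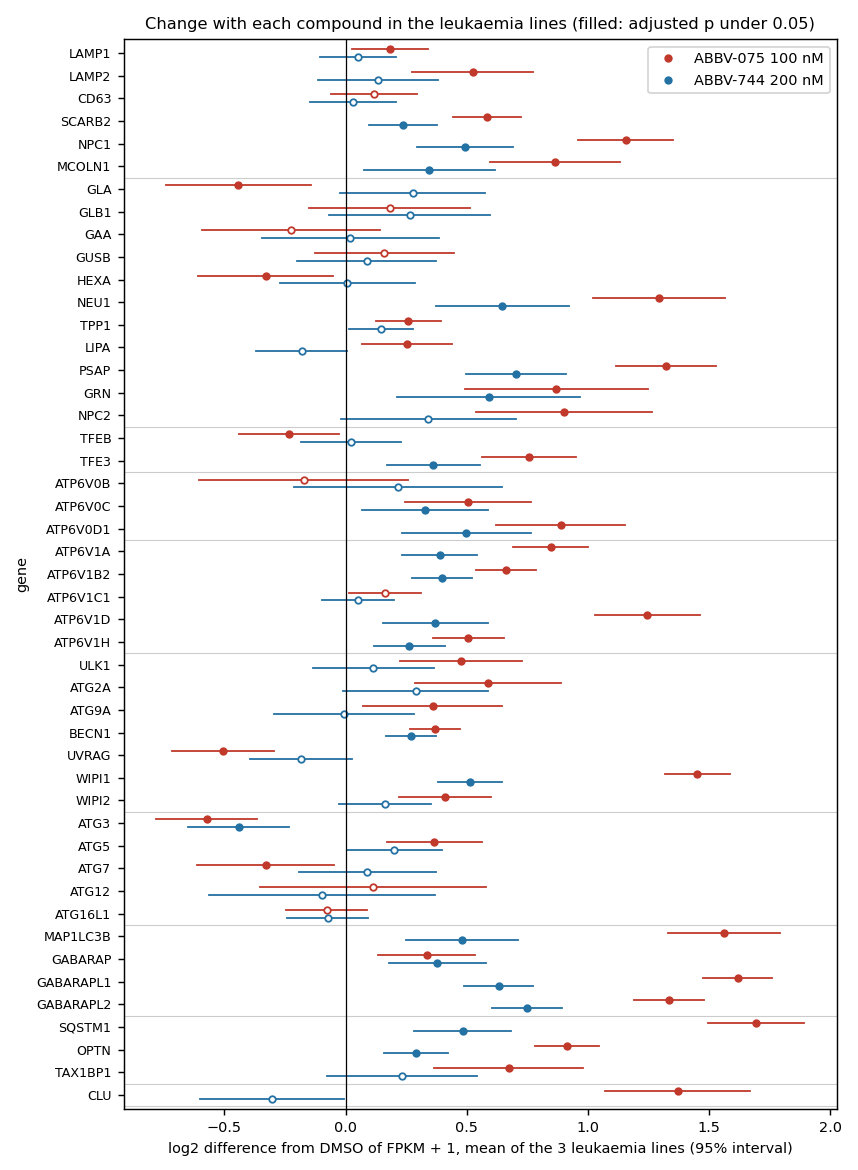
Log2 difference from DMSO of FPKM + 1 in the mean of the 3 leukaemia lines (x axis) for each tested member (y axis, by role), with 95% intervals, for ABBV-075 at 100 nM and ABBV-744 at 200 nM. Filled points have adjusted p under 0.05. Both sets of points share the DMSO libraries, and the ABBV-744 interval of CLU lies left of its ABBV-075 interval with no overlap.

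Set directly against ABBV-075, and so without the DMSO libraries, ABBV-744 at the higher nominal dose gave lower values for most called members. In SKM-1, 21 of 49 were lower and 1 higher (21% and 22.7% of all genes), in MV-4-11 10 of 48 lower and none higher (9.44% and 12.5%), in Kasumi-1 13 of 48 lower and 2 higher (16.5% and 21.2%), and in NCI-H1299 17 of 47 lower and none higher (16.0% and 18.6%). In the AML mean 25 of 47 were lower and 5 higher (23.7% and 28.1%), and the 5 were 2 when values were quantile normalized or rescaled without mitochondrial transcripts. Without CLU, MITF and OPTN, tested in Kasumi-1 only through its ABBV-075 libraries, the 13 lower there were 10. The AML mean had 23 lower without CLU and OPTN. It had 4 higher without TFEB, tested in Kasumi-1 only through its DMSO libraries. Fits of 1 line alone called 10 members in SKM-1 (22 with all lines), 22 in MV-4-11 (10) and 30 in NCI-H1299 (17). SQSTM1 was lower by -2.36, -0.89 and -1.39 in SKM-1, MV-4-11 and NCI-H1299 (SE 0.16), and CLU by -2.95 ± 0.24 in SKM-1 and -1.46 ± 0.24 in Kasumi-1. GLA, one of the members lower with ABBV-075 in the AML mean, was higher with ABBV-744 than with ABBV-075 in SKM-1 (1.29 ± 0.24, adjusted p = 5.2e-04). In the change with ABBV-744, the AML mean minus NCI-H1299 was called for 0 of 46 members by limma (0.57% of all genes in either direction), 7 members had an unadjusted p under 0.05, and the F test among the 4 lines called 5 of 46 (6.50%): ATP6V1B2, WIPI1, GABARAPL2, OPTN and CLU, of which the last pair was tested in Kasumi-1 through ABBV-075 libraries alone. Those 5 were 24 without SKM-1 DMSO replicate 1, 8 without SKM-1 DMSO replicate 2, and 3 without SKM-1 ABBV-744 replicate 1, Kasumi-1 DMSO replicate 1 or Kasumi-1 ABBV-744 replicate 1. The AML mean difference of 0 members was 4 without either SKM-1 DMSO library and 1 without either Kasumi-1 ABBV-075 library.

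Other genes of the same pathways, 108 of 111 listed symbols found in the table, were counted in the same way. In the AML mean, ABBV-075 libraries against DMSO, 50 of 98 rose and 23 fell, with a median of 0.27, against 33.5% higher and 34.4% lower of all genes tested, the shares against which the list counts that follow are to be read. Among other hydrolases and their activators 13 of 18 rose and 3 fell, from FUCA1, the lysosomal fucosidase (1.70 ± 0.08, adjusted p = 7.2e-11), to PPT1, a thioesterase (-1.27 ± 0.09, adjusted p = 5.2e-09). Other membrane genes gave 7 of 16 higher and 5 lower, from the potassium and proton channel TMEM175 (1.22 ± 0.14) to the ion channel TPCN2 (-0.78 ± 0.12). Of 9 other proton pump subunits 4 rose and 2 fell, from ATP6AP2 (0.47 ± 0.10) to TCIRG1 (-0.40 ± 0.12). Other autophagy machinery gave 15 of 25 higher and 2 lower, from MAP1LC3B2 (1.26 ± 0.28) to VAMP8, a SNARE of autophagosome fusion (-1.99 ± 0.10). The MAP1LC3B2 value is uncertain, because its reads may be shared with the near-identical member MAP1LC3B. Of 9 other cargo receptors 5 rose and 3 fell, from the mitophagy receptor BNIP3L (1.21 ± 0.09) to FKBP8 (-0.94 ± 0.17). Genes of mTORC1 at the lysosome, the growth kinase complex that restrains autophagy and TFEB, had 8 falls and 6 rises among 21, near those shares, from RRAGA, a Rag GTPase (0.93 ± 0.08), to MLST8, a subunit of the complex (-1.34 ± 0.14).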

How the data were processed

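Poly-A RNA was profiled in 24 libraries, 2 in each of 12 groups. The authors deposited 1 table of FPKM values per gene or transcript. Per the submitters' processing notes the authors used DESeq2, with no version or role named. Which aligner, quantifier, annotation and genome build they used is not given in the sources used here. FPKM is not a count, so no counting interval was computed. Groups were taken from the labels, which are silent on separate cultures for the 2 libraries, so the p-values here reflect the spread between libraries only, and that spread may be technical.

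A linear model of the 12 group means was fitted to log2(FPKM + 1) of the whole table with limma 3.58.1 in R 4.3.3 (eBayes with trend and robust, statmod 1.5.0, 12 residual degrees of freedom). Tested genes reached 1 FPKM in 2 or more libraries of each line compared, p-values were two-sided and adjusted by Benjamini and Hochberg over all genes tested in each of 21 comparisons, and adjusted p under 0.05 was the threshold. An exact permutation test of 2 libraries against 2 can reach p = 0.333 at the lowest. The calls therefore use a spread that limma estimates over groups and genes together. Errors of the AML mean take the 3 lines as fixed. On simulated data the fit recovered 200 of 200 changed genes in the AML mean with ABBV-075 (11 false calls among 10515 genes) and 174 of 200 in NCI-H1299 (6 among 12676), and it made 0 calls in NCI-H1299 with ABBV-744, where no change was simulated. The simulation gave each gene the same spread in every group and changed only genes at 5 FPKM or more in all 24 libraries. It therefore cannot speak for lower genes or for groups of unequal spread, such as SKM-1 with DMSO.

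The 49 members, the 10 roles and the 6 lists of other pathway genes were chosen with earlier results of these data known. Any member could be named. For each role and compound, library values were given for the called members with the largest change in the AML mean and in NCI-H1299 (up to 3 a role, in the lines described) and for members called in opposite directions, and of each other list the largest called rise and fall in the AML mean with ABBV-075 were named. MYC, HEXIM1 and SERPINI1 served as checks of the response. Promoters were matched by symbol to RefSeq. HEXA, ATP6V1A, CLU, ATP6V1H, LAMP2, ATP6V1C1, ATP6V1B2, PSAP and UVRAG had no match.

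Alternatives were a pseudocount of 0.1, a filter at 5 FPKM or none, median ratio scaling, quantile normalization, rescaling without 37 mitochondrial rows, eBayes without trend and robust, a fit of each line alone, and each library left out in turn. Where that left 1 library in a group, it was taken to vary like the other groups.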

Additional observations from a re-analysis of the deposited data

Results flagged for a closer look

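The change with ABBV-075 differed among the 4 lines by the limma F test for 23 of 46 members, near the 50.4% of all genes tested. The span, which is the highest minus the lowest line's log2 difference from DMSO, ranged from 0.616 to 3.67. In descending order it was CLU 3.67, ATG9A 2.1, SQSTM1 2.01, GAA 1.87, MAP1LC3B 1.81, OPTN 1.63, CD63 1.54 and PSAP 1.51. It was then GABARAP 1.42, GLB1 1.32, NEU1 1.24, ATP6V1D 1.18, ATP6V1H 1.06, TFE3 1.05, WIPI1 1.01 and ATG3 0.923. The smallest were GABARAPL1 0.84, LAMP1 0.763, NPC1 0.711, TPP1 0.7, LIPA 0.69, ATG16L1 0.64 and GABARAPL2 0.616. CLU, ATG9A and CD63, at or near the top, are the members called in opposite directions in different lines. The CLU fall in MV-4-11 was lost in 16 of the single-library omissions and the ATG9A fall in Kasumi-1 in 3. For 16 of the 23 members the highest line was SKM-1, whose DMSO libraries stood apart from each other. The part of those libraries in the spans was not tested beyond leaving each of them out.

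With ABBV-744 the change differed among lines for 5 of 46 members (6.5% of all genes), with spans of CLU 1.74, GABARAPL2 0.864, WIPI1 0.856, ATP6V1B2 0.774 and OPTN 0.749.

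Between the AML mean and NCI-H1299 the change with ABBV-075 differed for 5 of 46 members, a share near the 10.5% of all genes higher in the AML mean. The log2 differences were MAP1LC3B 0.791, ATP6V1D 0.782, GABARAPL1 0.643, GABARAPL2 0.52 and OPTN 0.494, all larger in the AML mean. Not every leukaemia line was above NCI-H1299: in MV-4-11 OPTN changed by -0.05 and MAP1LC3B by 0.75, against 0.42 and 0.77 in NCI-H1299. CLU and OPTN were tested in Kasumi-1 through its ABBV-075 libraries alone.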

How the results depend on the processing

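Of 216 member calls against DMSO, 137 held under every alternative run and 79 were lost under at least 1, of which 59 were lost when some single library was left out. Members called in a fit of 1 line alone, against the count with all lines, were 38 for NCI-H1299 with ABBV-075 (25), 0 for SKM-1 (24), 11 for MV-4-11 (6), 4 for Kasumi-1 (10) and 10 for NCI-H1299 (1) with ABBV-744, and 10 for SKM-1 (22), 22 for MV-4-11 (10) and 30 for NCI-H1299 (17) between the compounds. Rescaling without mitochondrial transcripts gave 10 in MV-4-11 and 6 in Kasumi-1 with ABBV-744. For the AML mean minus NCI-H1299, a filter at 5 FPKM gave 3 and quantile normalization 8 with ABBV-075 (5), and no filter gave 3, quantile normalization 1 and eBayes without trend and robust 1 with ABBV-744 (0). The F test of the change with ABBV-744 called 3 members with a filter at 5 FPKM, against 5.

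Leaving out each library in turn gave, for ABBV-075 against DMSO, 31 to 39 in SKM-1, 17 to 33 in MV-4-11, 25 to 37 in Kasumi-1, 18 to 30 in NCI-H1299 and 34 to 41 in the AML mean members called. For ABBV-744 against DMSO it gave 14 to 35 in SKM-1, 4 to 10 in MV-4-11, 4 to 14 in Kasumi-1, 0 to 2 in NCI-H1299 and 19 to 30 in the AML mean. Between the compounds it gave 18 to 33 in SKM-1, 6 to 18 in MV-4-11, 11 to 25 in Kasumi-1, 13 to 25 in NCI-H1299 and 25 to 32 in the AML mean. The AML mean minus NCI-H1299 ranged over 1 to 13 with ABBV-075 and 0 to 4 with ABBV-744, and the F tests among lines over 15 to 38 and 3 to 24. For the DMSO level, the F test ranged over 40 to 44 and the AML mean minus NCI-H1299 over 31 to 41.

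The differences that changed sign were not called with all libraries: without SKM-1 DMSO replicate 1 and replicate 2 in turn, SKM-1 gave 0.79 and -0.80 for ATP6V0B with ABBV-075, -1.34 and 0.55 for ATG12, 0.79 and -0.38 for ATG7, and -0.67 and 0.86 for NPC2 with ABBV-744. The all-gene median moved by -0.15 in SKM-1 with ABBV-744 and by 0.10 in NCI-H1299 with ABBV-075 when rescaled without mitochondrial transcripts, and by 0.13 in Kasumi-1 with ABBV-075 when quantile normalized. The members' median then stood 0.32, 0.50 and 0.50 above it. Read depth is unknown, so how it limits the low genes (MITF, TFEB, OPTN) could not be set. No paired analysis was possible because the labels number no replicates, and numbers given by accession order tie no 2 libraries together.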
